A study of Mus musculus with 8 samples.

Results

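The genes described here encode the nuclear subunits of respiratory complex I and the factors that build it, measured in the groin fat pad (inguinal white adipose tissue) of mice with and without the lysophosphatidic acid receptor Lpar4. Members were the genes with a probe set of the array that names a single gene whose symbol starts with Nduf, together with Ecsit, Acad9, Timmdc1, Tmem126b, Foxred1 and Nubpl. This gave 50 of the 18193 genes measured. Of these, 48 belong to complex I, as 6 core subunits, 28 accessory subunits and 14 assembly factors. The remaining 2 carry the symbol but are not part of complex I: Ndufa4, now assigned to complex IV, and its paralogue Ndufa4l2.

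The knockout group (KO) held 4 male mice described as Lpar4 -/Y, and the wild-type group (WT) held 4 male littermates. All were 12 weeks old, on the C57BL/6 background and fed standard chow, and the labels name no tissue restriction of the deletion. The comparison asks which transcripts of this depot differ when the receptor is missing. Each mouse gave 1 array, and both groups are numbered 1 to 4. Values are log2 signals of a 3′ expression array, and a difference is KO minus WT on that scale.

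Complex I is the entry point of the mitochondrial respiratory chain for electrons from NADH. Its matrix arm holds the N module, which oxidises NADH, and the Q module, which passes the electrons through iron-sulfur clusters to ubiquinone, while its membrane arm pumps protons. Core subunits are shared with the bacterial enzyme and carry out catalysis, accessory subunits surround and stabilise them, and assembly factors help to join the modules but are absent from the finished enzyme. In white adipocytes the respiratory chain supplies ATP and regenerates the NAD+ used in fatty acid oxidation and the tricarboxylic acid cycle.

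Promoter sequence was examined because nearly all varying members differed in the same direction. RefSeq (GRCm38.p6) windows from 250 bases before to 50 bases after the start site were available for 43 of the 48 genes, with 45 promoters in all. Acad9, Ndufa2, Ndufaf6, Ndufb9 and Ndufs1 had no window and were not searched. Binding cores of 5 factors known to act on nuclear genes of respiration were searched on both strands. The YY1 core AAGATGGC stood furthest from the background: 8 of 45 member promoters held it (17.8%), against 3.05% of 21262 promoters of protein-coding genes and 2.75% of all 32851 promoters. All 8 matches read in the direction of the gene and began after the start site, at base 10 in Ndufaf8, 17 in Tmem126b, 22 in Ndufa3 and in Ndufc1, 24 in Ndufs7, 29 in Ndufa9, 35 in Ndufs4 and 38 in Ndufb8. Such a match stood in 1.24% of the protein-coding promoters. The 8 windows of 30 bases are shown because they share this letter run and its place, with the core in capitals and each sequence read in the direction of the gene.
Ndufa3, chr7:3617384-3617413 (+ strand): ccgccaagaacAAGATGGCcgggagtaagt
Ndufa9, chr6:126849097-126849126 (- strand): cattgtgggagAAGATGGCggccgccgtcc
Ndufaf8, chr11:120098933-120098962 (+ strand): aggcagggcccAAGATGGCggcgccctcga
Ndufb8, chr19:44555393-44555422 (- strand): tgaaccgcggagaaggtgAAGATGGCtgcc
Ndufc1, chr3:51408915-51408944 (- strand): gcctgcggaacAAGATGGCgccgtccgtag
Ndufs4, chr13:114388045-114388074 (- strand): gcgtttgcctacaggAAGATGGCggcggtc
Ndufs7, chr10:80249462-80249491 (+ strand): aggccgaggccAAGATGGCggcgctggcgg
Tmem126b, chr7:90475960-90475989 (- strand): cgtgaggcgctAAGATGGCggcgtcccagc

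In the plot of match positions these 8 fall in a narrow band just after the start site. The other cores were CCGGAAG for ETS factors such as GABPA (8 of 45 promoters, 17.8%, against 11.6% of protein-coding promoters), GCATGCGC for NRF1 (4, 8.89% against 3.51%), AAGGTCA for the estrogen-related receptors (3, 6.67% against 4.08%) and TGACGTCA for CREB (3, 6.67% against 2.23%). The letters TGACGTCA read the same on both strands, so each match was counted once. Matches on opposite strands overlapped for the NRF1 core in Ndufaf4 and Ndufaf5 and for the ETS core in Timmdc1, and a promoter was counted once for a core however often it held it. A match describes these letters alone and says nothing of binding.

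**Figure D1:**
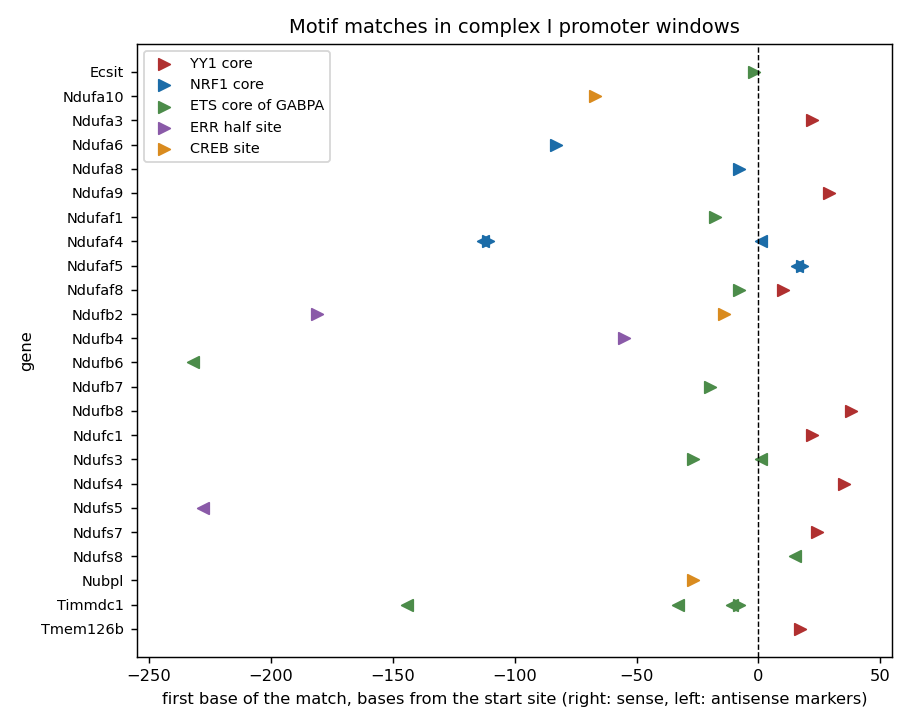
Position of each motif match in the promoter windows of complex I genes, in bases from the start site, with the marker pointing right for the gene's own direction and left for the opposite strand. The 8 YY1 cores lie at bases 10 to 38 after the start, while the NRF1 and ETS cores lie on both sides of it and the CREB and estrogen-related receptor cores before it.

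Upstream stretches of 100 bases, ending at the base before the start site, are given for 3 accessory subunits that the results return to. Ndufb3 and Ndufa6 had the largest differences in either direction among the accessory subunits. Among the genes passing over all genes that had a window, only Ndufa10 held a CREB site. Acad9 and Ndufs1 also passed over all genes but could not be searched. Ndufb3 held none of the 5 cores, and the capitals mark the CREB site of Ndufa10 and the NRF1 core of Ndufa6.
Ndufb3, chr1:58586297-58586396 (+ strand): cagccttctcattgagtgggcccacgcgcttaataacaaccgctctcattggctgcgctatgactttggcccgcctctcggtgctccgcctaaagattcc
Ndufa10, chr1:92473759-92473858 (- strand): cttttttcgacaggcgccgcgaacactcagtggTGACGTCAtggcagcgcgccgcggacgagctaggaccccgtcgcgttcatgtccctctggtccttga
Ndufa6, chr15:82354292-82354391 (- strand): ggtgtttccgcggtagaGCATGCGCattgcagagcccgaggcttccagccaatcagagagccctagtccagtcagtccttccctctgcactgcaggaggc

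Complex I transcripts were higher in KO fat, by small amounts, in all 3 classes. In bulk RNA a change in the number of cells of a type and a change in RNA per cell cannot be told apart. In limma with Benjamini-Hochberg adjustment over all 18193 genes, 12 of the 48 passed a threshold of 0.05 as higher in KO and 0 as lower, where 2.39% of all genes passed as higher and 1.64% as lower. The 12 were the core subunits Ndufs1 and Ndufs8, the accessory subunits Ndufa10, Ndufa12, Ndufab1, Ndufb3, Ndufb6, Ndufc1 and Ndufs5, and the assembly factors Acad9, Foxred1 and Ndufaf2. Of the 48, 34 had an unadjusted p under 0.05 in either direction, as did 4172 of all 18193 genes. These 34 include Ndufa6, which was lower in KO. They also include Ndufa2, Ndufaf3, Ndufaf5, Ndufaf8, Ndufb1 and Tmem126b, whose differences were 0.0122 or less. In fold terms the 12 ranged from 1.12 for Ndufs5 to 1.34 for Ndufb3.

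The calls did not hold in every fit. When replicate number entered as a block, 0 members and 0 of all genes passed over all genes. An unadjusted p under 0.05, in either direction, was still held by 36 of the 48 and by 3703 of all 18193 genes. Ndufa6 was among the 36, as were Ndufa2, Ndufaf3, Ndufaf5, Ndufb1 and Tmem126b with their differences of 0.0122 or less. Every member called higher is therefore given with its blocked value. Without KO array 1, 2, 3 or 4 the members called numbered 1, 5, 0 and 1, and without WT array 1, 2, 3 or 4 they numbered 2, 0, 1 and 3. With numbers 1 and 2 against 3 and 4 as the block, 5 members remained called, and Ndufs1, Ndufs8, Ndufb6, Ndufc1, Ndufs5, Ndufaf2 and Foxred1 had limma adjusted p of 0.0549 to 0.0780. Many genes have nearly the same value in every array, and the 5173 genes with an SD of at least 0.01 over the 8 arrays are called varying here. The rest are called near constant. For Ndufc2, the probe set used had an SD of 0.065, and another of similar signal had an SD of 7.5e-05. A near-constant value is therefore not read as an unchanged transcript. Among varying genes only, 21 of the 35 varying members were higher and 0 lower (14.9% and 12.2% of varying genes). With the block added 15 were higher and 0 lower (10.3% and 9.24%), and 9 of the 12 were among the 15.

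Direction was more uniform than the calls. Of the 35 varying members 34 had a positive difference, against 52.3% of varying genes, and the exception was Ndufa6. The median difference was 0.16 over the 48 members and 0.19 over the 35, beside medians of 2.86e-05 over all genes and 0.01 over varying genes. In 27 members every KO array lay above every WT array (7.38% of all genes and 18.2% of varying genes), and in 1, Ndufa6, every KO array lay below (5.75% and 15.0%). One of the 27, Ndufb1, is near constant, with a difference of 0.00049. Within each replicate number, KO exceeded WT in all 4 numbers for 37 of the 48 members (14.2% of all genes and 27.8% of varying genes). The reverse held for Ndufa6 alone (18.5% and 25.0%). The 37 include Ndufaf3, Ndufb1, Ndufb11 and Tmem126b, which are near constant.

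**Figure D2:**
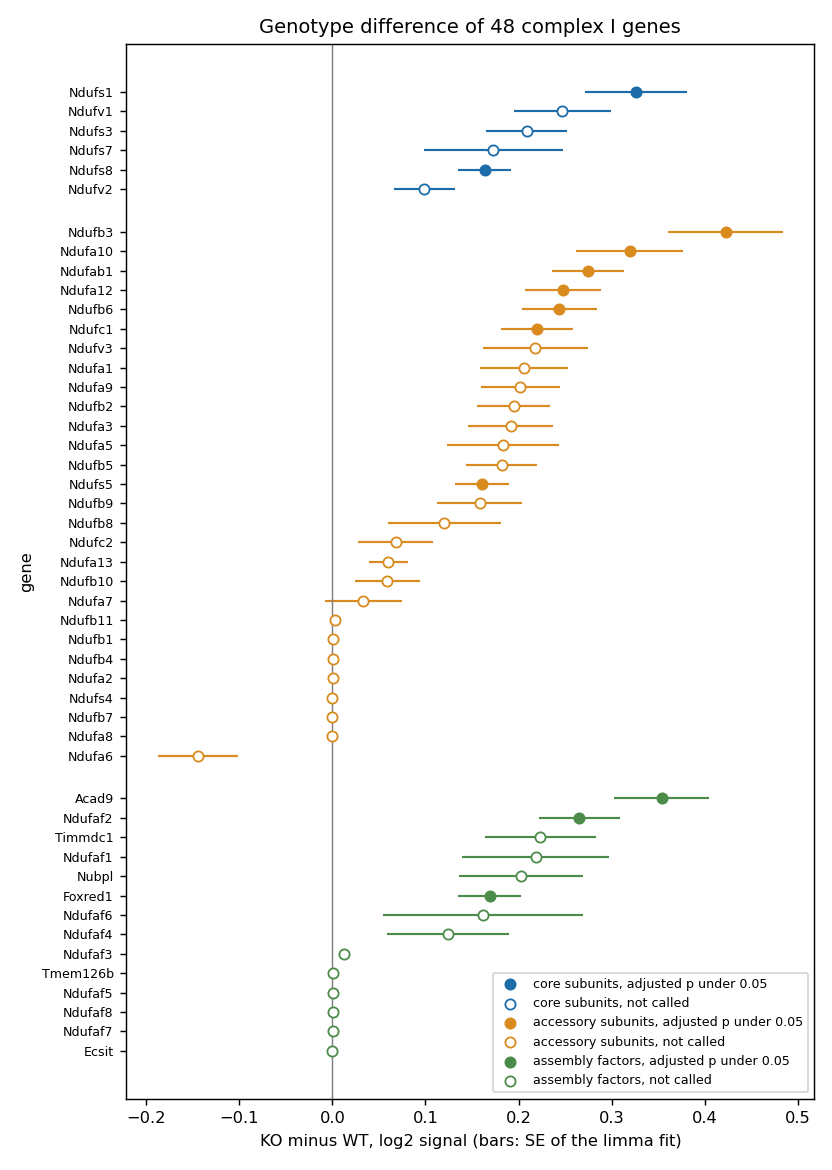
Difference in log2 signal, KO minus WT, for each of the 48 complex I genes grouped by class, with bars showing the SE of the limma fit and filled symbols marking adjusted p under 0.05 without the block. The 12 filled symbols all lie to the right of 0, near-constant genes sit on it, and Ndufa6 is the lone gene clearly to its left.

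Among the core subunits, which together hold the flavin and the iron-sulfur clusters, all 6 measured genes varied and all 6 had a positive difference, from 0.10 to 0.33. The median was 0.19, and it lay between 0.18 and 0.22 when any 1 array was left out. Ndufs1, the largest core subunit and a carrier of iron-sulfur clusters in the N module, read 10.28, 10.09, 10.25 and 10.11 in KO mice 1 to 4 and 9.92, 9.82, 9.89 and 9.80 in WT mice 1 to 4. The groups did not overlap, and the difference was 0.33 ± 0.05 (SE, n = 4 against 4), or 1.25-fold. Its limma adjusted p was 0.0357 over all genes and 0.0719 with the block, and 0.0246 with the block among varying genes.

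Ndufs8, an iron-sulfur subunit of the Q module, read 10.77, 10.73, 10.81 and 10.68 in KO and 10.61, 10.57, 10.58 and 10.57 in WT. The 4 WT arrays were within a narrow range, below all KO arrays, and the difference was 0.16 ± 0.03 (limma adjusted p = 0.0402, and 0.119 with the block). It did not pass with the block among varying genes (0.0644). Its other 4 varying probe sets differed by 0.15 to 0.27, in the same direction, each without overlap of the groups. The call was nevertheless lost with the mean of its probe sets (0.0552) and with its most variable one (0.0862), which differed by 0.27.

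Ndufv1 holds the site where NADH is oxidised. Its values were 10.97, 10.88, 10.97 and 11.04 in KO and 10.78, 10.59, 10.75 and 10.75 in WT, again without overlap and with WT 2 the lowest of all 8. The difference of 0.25 ± 0.05 missed the threshold over all genes (limma adjusted p = 0.0565) and passed with the block among varying genes (0.0328). Ndufs3, a structural subunit of the Q module, behaved likewise: it read 10.99, 10.83, 10.88 and 10.85 in KO and 10.74, 10.63, 10.65 and 10.70 in WT, a difference of 0.21 ± 0.04 with limma adjusted p of 0.0546 over all genes and 0.0398 with the block among varying genes. Ndufv2, a further iron-sulfur subunit of the N module, differed by 0.10 without overlap (adjusted p = 0.143). Ndufs7, which carries the last cluster before ubiquinone, differed by 0.17 with overlapping groups (adjusted p = 0.237), with WT 4 the lowest and KO 3 the highest array. The 7 core subunits encoded by mitochondrial DNA were not analysed here.

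Of the 28 accessory subunits 21 varied, 20 of them with a positive difference. Their median was 0.16 over all 28 and 0.19 over the 21, and 7 passed as higher over all genes and 9 with the block among varying genes. Grouped by place in the enzyme, core and accessory subunits together, 2 of 7 N module genes passed over all genes (median 0.22), as did 1 of 5 in the Q module (0.18), 3 of 8 in the proximal membrane arm (0.18) and 2 of 11 in the distal membrane arm (0.12). The distal arm holds 4 near-constant members, and over its 7 varying members the median was 0.18. Differences between modules were not tested.

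Ndufb3, a small subunit of the distal membrane arm, had the largest difference of any member. It read 10.87, 10.73, 10.72 and 10.73 in KO and 10.43, 10.41, 10.19 and 10.33 in WT, so that KO 1 was the highest array and WT 3 the lowest. The difference was 0.42 ± 0.06 (SE, n = 4 against 4), or 1.34-fold, with limma adjusted p of 0.0290 over all genes, 0.0881 with the block, and 0.0228 with the block among varying genes. Ndufb6, of the same arm, read 10.64, 10.52, 10.65 and 10.63 in KO and 10.39, 10.34, 10.30 and 10.43 in WT. The 2 groups were tight and well apart, with a difference of 0.24 ± 0.04 (limma adjusted p = 0.0353 over all genes, 0.120 with the block and 0.0384 with the block among varying genes). Its most variable probe set differed by 0.23 and did not pass (0.0631).

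Ndufa10, a kinase-related protein on the matrix face of the proximal membrane arm, read 11.02, 10.81, 10.97 and 11.03 in KO and 10.65, 10.54, 10.68 and 10.67 in WT. KO 2 was closest to the WT arrays and WT 2 was the lowest of all. The difference was 0.32 ± 0.06, with limma adjusted p of 0.0416 over all genes, 0.0726 with the block and 0.0246 with the block among varying genes. The mean of its probe sets differed by 0.16. Ndufc1, a single-span subunit of the same arm and one of the 8 genes with the YY1 core, read 11.43, 11.27, 11.40 and 11.39 in KO and 11.16, 11.13, 11.12 and 11.20 in WT. Here too KO 2 was the lowest KO array, above all WT arrays, and the difference of 0.22 ± 0.04 had limma adjusted p of 0.0402 over all genes, 0.119 with the block and 0.0426 with the block among varying genes.

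Ndufs5, on the intermembrane space side of the membrane arm, read 10.21, 10.16, 10.15 and 10.19 in KO and 10.00, 9.97, 10.02 and 10.09 in WT. The KO arrays were nearly equal, and the difference was 0.16 ± 0.03 (limma adjusted p = 0.0420 over all genes, and 0.132 with the block). With the block among varying genes it did not pass (0.0687), nor over all genes with array medians set equal (0.0658) or after quantile normalization (0.0557).

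Ndufab1 is the mitochondrial acyl carrier protein, present in the enzyme in both arms and also the carrier of mitochondrial fatty acid synthesis. It read 11.35, 11.23, 11.35 and 11.26 in KO and 11.08, 10.97, 11.05 and 11.00 in WT, a difference of 0.27 ± 0.04 without overlap. Its limma adjusted p was 0.0274 over all genes, 0.0577 with the block and 0.0272 with the block among varying genes. The mean of its probe sets differed by 0.14 (0.0410 over all genes), and its most variable one by 0.43 without passing (0.0728). In the enzyme each copy is held by a protein of the LYR family, Ndufa6 on the matrix arm and Ndufb9 on the membrane arm. The 3 partners did not show like values: Ndufb9 differed by 0.16 (adjusted p = 0.110, groups not overlapping), and Ndufa6 was lower in KO.

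Ndufa6 read 10.83, 10.80, 10.80 and 10.78 in KO mice 1 to 4 and 10.98, 10.84, 11.04 and 10.95 in WT mice 1 to 4. Every KO array was below every WT array, though KO 1 and WT 2 were almost level. The difference was -0.14 ± 0.04 (SE), and it passed neither over all genes (limma adjusted p = 0.117, 0.207 with the block) nor among varying genes (0.0714, and 0.107 with the block). It rests on 1 probe set, the only one that names Ndufa6 alone. Ndufa7, placed with Ndufa6 at the boundary of the N and Q modules, differed by 0.03 with overlapping groups, and its other 3 varying probe sets by 0.09 to 0.11.

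Ndufa12, an accessory subunit of the N module, read 11.52, 11.43, 11.48 and 11.51 in KO and 11.25, 11.14, 11.26 and 11.31 in WT. All KO arrays lay above all WT arrays, with a difference of 0.25 ± 0.04 and limma adjusted p of 0.0351 over all genes, 0.0729 with the block and 0.0321 with the block among varying genes. The mean of its probe sets differed by 0.15. Its paralogue Ndufaf2 is an assembly factor that occupies the place of Ndufa12 until late in assembly. Ndufaf2 read 8.12, 8.10, 8.16 and 8.08 in KO and 7.95, 7.77, 7.79 and 7.89 in WT, a difference of 0.27 ± 0.04. Both genes of the pair rose, and Ndufaf2 had limma adjusted p of 0.0350 over all genes, 0.138 with the block and 0.0391 with the block among varying genes.

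A further 3 accessory subunits did not pass over all genes but did with the block among varying genes. Ndufv3, of the N module, read 11.79, 11.63, 11.66 and 11.77 in KO and 11.48, 11.44, 11.44 and 11.62 in WT. Its highest WT array, WT 4, almost reached the lowest KO array, and the difference was 0.22 ± 0.06 (limma adjusted p = 0.0863 over all genes, 0.0428 with the block among varying genes). Ndufa1, a membrane arm subunit encoded on the X chromosome, read 12.07, 12.02, 12.03 and 12.09 in KO and 11.83, 11.80, 11.78 and 11.98 in WT. WT 4 was again nearest to KO, and the difference was 0.21 ± 0.05 (limma adjusted p = 0.0659 and 0.0464 in the same fits). Ndufa9, a dehydrogenase-related protein at the Q module whose promoter holds the YY1 core, read 10.77, 10.65, 10.71 and 10.76 in KO and 10.48, 10.48, 10.51 and 10.62 in WT. Its difference was 0.20 ± 0.04, with the same high WT 4 (limma adjusted p = 0.0555 and 0.0493).

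The other varying accessory subunits passed neither over all genes nor with the block among varying genes. Among varying genes without the block, Ndufb2, Ndufa3 and Ndufb5 passed (limma adjusted p = 0.0275, 0.0353 and 0.0318). Ndufb2 and Ndufa3 each differed by 0.19, Ndufa5 and Ndufb5 by 0.18, Ndufb8 by 0.12, Ndufc2 by 0.07, and Ndufa13 and Ndufb10 by 0.06. The near-constant ones were Ndufa2, Ndufa8, Ndufb1, Ndufb4, Ndufb7, Ndufb11 and Ndufs4, whose differences were all under 0.01. Ndufb4 is represented by a probe set at percentile 7.68 of all genes, among the dimmest signals of the arrays. The brightest probe set of Ndufb11 is near constant, while another differed by 0.08. Ndufa11 and Ndufs6 had no probe set naming them alone.

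**Figure D3:**
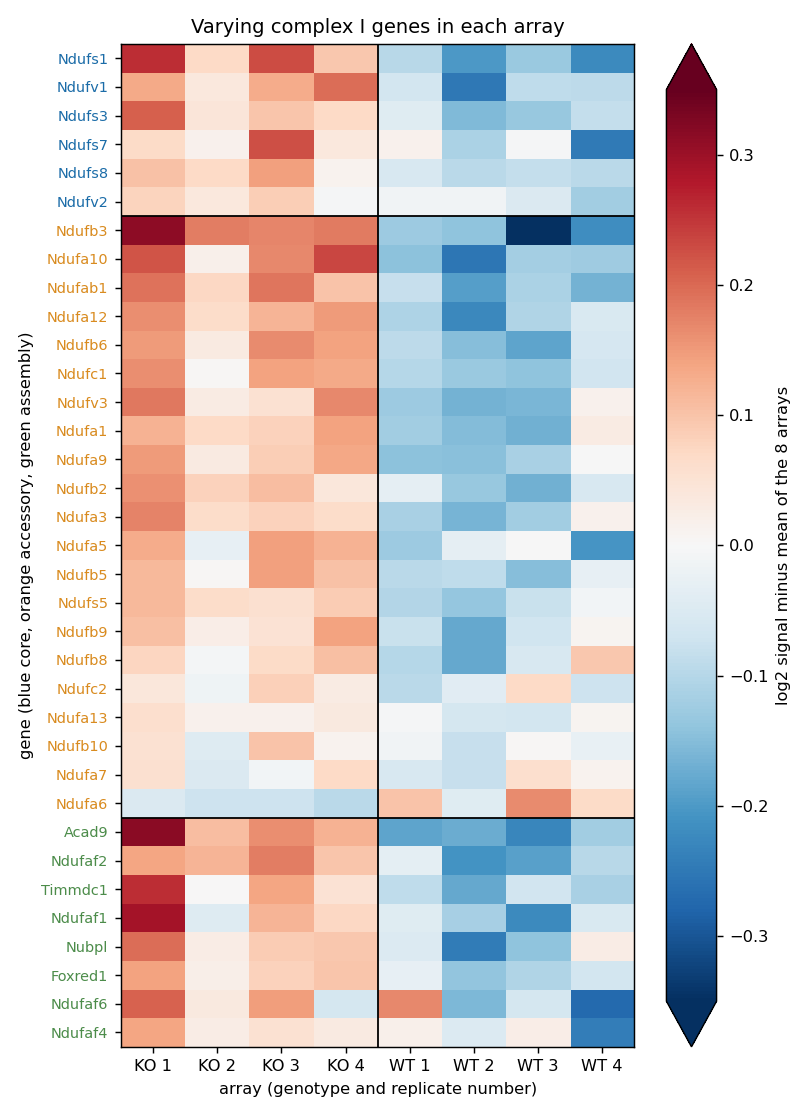
Log2 signal of the 35 varying complex I genes in each of the 8 arrays, as the deviation from the gene's mean over all arrays, with core, accessory and assembly genes divided by lines. The KO columns are mostly red and the WT columns mostly blue, KO 2 is the palest KO column, and the row of Ndufa6 runs the other way.

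Assembly factors split into genes that varied and genes that did not. Of the 14, 8 varied and all 8 had a positive difference, while 6 were near constant, so that the median was 0.14 over the 14 and 0.21 over the 8. Without WT array 4 the median over the 14 was 0.0816. Over all genes 3 passed, and 3 did with the block among varying genes.

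Acad9, an acyl-CoA dehydrogenase relative that serves in the membrane arm assembly complex (MCIA), read 8.72, 8.52, 8.57 and 8.53 in KO and 8.22, 8.24, 8.18 and 8.29 in WT. The highest of these was KO 1, and the 4 WT arrays were close together. The difference was 0.35 ± 0.05 (SE), or 1.28-fold, with limma adjusted p of 0.0283 over all genes, 0.126 with the block and 0.0318 with the block among varying genes. A second probe set of Acad9 differed by 0.36. Timmdc1, a membrane protein that assembles the membrane arm beside MCIA, read 7.73, 7.48, 7.61 and 7.52 in KO and 7.39, 7.30, 7.41 and 7.36 in WT. Its groups did not overlap, and its difference of 0.22 ± 0.06 passed only in the fits to varying genes (limma adjusted p = 0.0928 over all genes, 0.0471 with the block among varying genes).

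Of the other MCIA genes, Ndufaf1 differed by 0.22 with overlapping groups (adjusted p = 0.173), and Ecsit and Tmem126b were near constant. Foxred1, a flavoprotein needed at a middle stage of assembly, read 8.01, 7.89, 7.95 and 7.97 in KO and 7.84, 7.73, 7.77 and 7.81 in WT. The groups were separate by a narrow margin, and the difference of 0.17 ± 0.03 stood just inside the threshold over all genes (limma adjusted p = 0.0499, and 0.0619 with the block). It stood just outside with the block among varying genes (0.0515) and with a variance trend over all genes (0.0501). Nubpl, which delivers iron-sulfur clusters to complex I, differed by 0.20 without overlap (adjusted p = 0.140).

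The factors assigned to Q module assembly held none of the calls. Ndufaf6 differed by 0.16 and Ndufaf4 by 0.12, and neither passed in any fit given here. A second probe set of Ndufaf4 differed by 0.32. Ndufaf3, Ndufaf5, Ndufaf7 and Ndufaf8 were near constant, and Ndufaf3 at 0.01 was the largest difference among the 13 near-constant members.

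Mean signal over the members of a class separated the genotypes in each class. The mean of the 6 core genes was 10.79, 10.69, 10.80 and 10.71 in KO mice 1 to 4 and 10.60, 10.51, 10.56 and 10.50 in WT mice 1 to 4, a difference of 0.20. The lowest KO mean exceeded the highest WT mean, and the same held for both other classes. For the 28 accessory genes the KO mean of 10.70 ± 0.03 stood above the WT mean of 10.57 ± 0.03, and for the 14 assembly factors 8.06 ± 0.04 stood above 7.94 ± 0.03 (SD, n = 4). These means include near-constant members. Over varying members alone the differences were 0.20, 0.17 and 0.21 for core, accessory and assembly genes.

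**Figure D4:**
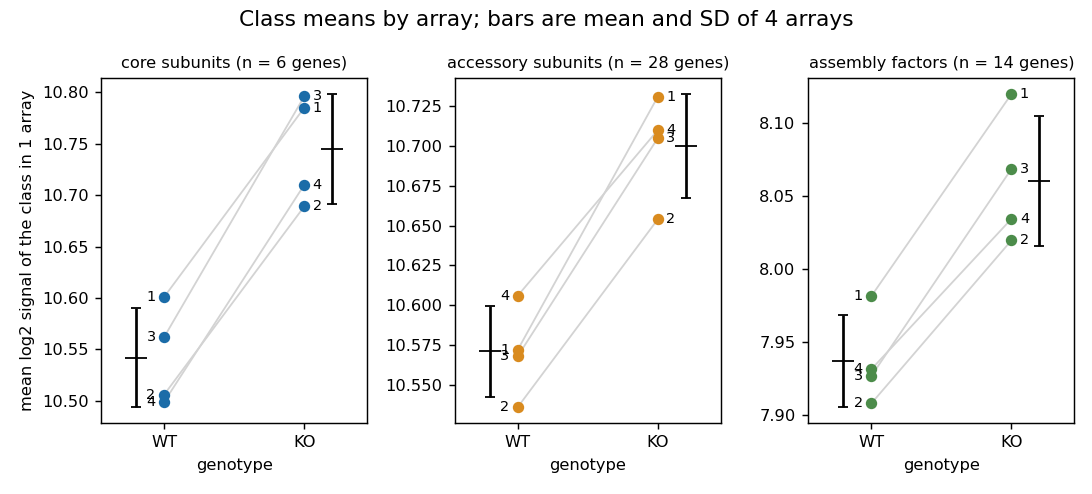
Mean log2 signal of the core, accessory and assembly genes in each array, joined by replicate number, with the group mean and SD of 4 arrays beside the points and a separate vertical scale in each panel that does not start at 0. In each class all 4 KO points lie above all 4 WT points, and each of the 4 lines rises.

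The genotype difference was seen in each replicate number. Of the 35 varying members, 34 were higher in KO in number 1, 34 in number 2, 33 in number 3 and 34 in number 4, with median differences of 0.22, 0.18, 0.22 and 0.15. Ndufa6 had the lowest difference in every number, and the highest was that of Acad9 (0.50) in number 1, Ndufaf2 (0.33) in number 2 and Ndufb3 (0.53 and 0.40) in numbers 3 and 4. Within KO, array 1 held the highest value of 20 of the 35 genes and array 2 the lowest of 26. Within WT, array 2 held the lowest value of 18 genes. WT array 4 stood differently by class, being the highest WT array for 12 of 21 accessory genes and the lowest for 4 of 6 core genes.

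The probe sets that do not represent a gene can be read as a further measurement of the same transcripts in the same RNA. The 48 genes had 94 probe sets naming a single gene, and 60 of them varied, 59 with a positive difference, against 50.3% of the 8248 varying probe sets of the array. Of the 25 varying probe sets that did not represent their gene, all 25 were higher in KO, 18 of them without overlap of the groups (16.8% of the 8248). All 17 genes with more than 1 varying probe set had them all higher in KO. Sizes differed between probe sets of a gene: those of Ndufa12 differed by 0.25, 0.17 and 0.17, those of Ndufv1 by 0.25, 0.23 and 0.34, and a second one of Ndufab1 by 0.43. By their suffixes, 7 of the probe sets that represent a member, those of Ndufa12, Ndufab1 and Ndufs8 among them, may also detect related transcripts.

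Ndufa4, the complex IV subunit with a complex I name, read 11.82, 11.80, 11.85 and 11.81 in KO and 11.65, 11.62, 11.65 and 11.75 in WT. It differed by 0.15 ± 0.03 without overlap and just missed the threshold (limma adjusted p = 0.0507 over all genes, 0.0790 with the block among varying genes). Its paralogue Ndufa4l2, known as a gene induced in hypoxia, was near constant at 6.91.

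Genes that work with complex I were read from lists of 110 genes, 94 of them measured, and 11 passed as higher and 0 as lower over all genes, where 2.39% and 1.64% of all genes did. The same 11 lost their calls with the block over all genes, and with the block among varying genes 18 were higher and 1 lower (10.3% and 9.24% of varying genes). The count was 4, 7, 0 and 6 without KO array 1, 2, 3 or 4, and 4, 4, 4 and 5 without WT array 1, 2, 3 or 4. The median difference of the 94 was 0.10, beside 0.16 over the complex I genes. Both medians include near-constant genes. Over varying genes alone they were 0.17 for the lists and 0.19 for complex I. Where a pair of adjusted p-values follows a gene, the first is over all genes without the block and the second with the block among varying genes.

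Of 5 measured further factors linked to complex I assembly, 2 passed. Tmem70, which also serves ATP synthase assembly, differed by 0.26 ± 0.03 (limma adjusted p = 0.0140 over all genes, 0.0299 with the block among varying genes). Aifm1, needed for import of some respiratory subunits, differed by 0.32 ± 0.05 (0.0362 and 0.0297). The other measured genes of this list were near constant, so that its median was 0.00021. The iron-sulfur cluster list, whose products supply the clusters of the matrix arm, had 1 of 12 passing, Bola3 at 0.31 ± 0.03 (0.0160 and 0.0289), and 7 of its 12 genes were near constant. The list of mitochondrial fatty acid synthesis and lipoylation, the pathway of Ndufab1, had 1 of 7 passing, the octanoyl transferase Lipt2 at 0.23 ± 0.04 (0.0337 and 0.0360). Its enoyl reductase Mecr differed by 0.39 ± 0.09, which did not pass over all genes but did with the block among varying genes (0.0649 and 0.0218).

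The other complexes of the chain also had positive medians. Complex II had 2 of 8 genes called and a median of 0.19: the assembly factor Sdhaf3 at 0.32 (limma adjusted p = 0.0346 over all genes, 0.0319 with the block among varying genes) and the membrane anchor Sdhc at 0.19 (0.0373 and 0.0542). Complex III with cytochrome c had 2 of 10 and a median of 0.21: cytochrome c itself, Cycs, at 0.34 (0.0140 and 0.0246), and cytochrome c1, Cyc1, at 0.28 (0.0402 and 0.0306). Complex IV had 0 of 13, with 6 at an unadjusted p under 0.05 in limma and a median of 0.07. Its largest difference was that of Cox8b, 0.54 without overlap of the groups (0.147 and 0.0301). ATP synthase had 1 of 15, Atp5j at 0.14 (0.0125 and 0.0707), with a median of 0.11. No difference between complex I and another complex was tested.

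Beside complex I, other routes of electrons to ubiquinone had 1 of 8 genes higher, Etfdh at 0.15 (0.0346 in limma over all genes, 0.0677 with the block among varying genes). The 1 gene lower with the block among varying genes was Aifm2, an oxidoreductase of ubiquinone outside the chain, at -0.50 (0.0889 and 0.0330). The 3 supercomplex factors held no call in limma over all genes, with 2 at an unadjusted p under 0.05: Higd1a differed by 0.28 (0.114 and 0.0590) and Cox7a2l by -0.12 (0.0719 and 0.123). Of 13 regulators of respiratory genes 1 passed, Nfe2l2, at 0.29 (0.0420 and 0.0286). The values of Yy1, Nrf1, Gabpa and Esrra were near constant, so whether their transcripts differ cannot be read here. CREB factors were not examined. The coactivator Ppargc1a differed by -0.10 with overlapping groups (0.614 and 0.439). Of the 8 genes with the YY1 core, Ndufc1 passed over all genes. Ndufa3, Ndufa9, Ndufb8 and Ndufs7 varied without passing there, with differences of 0.19, 0.20, 0.12 and 0.17 and overlapping groups in the latter pair, and Ndufs4, Ndufaf8 and Tmem126b were near constant. The genes passing over all genes had 10 promoters in the table, of which 1 held this core.

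**Figure D5:**
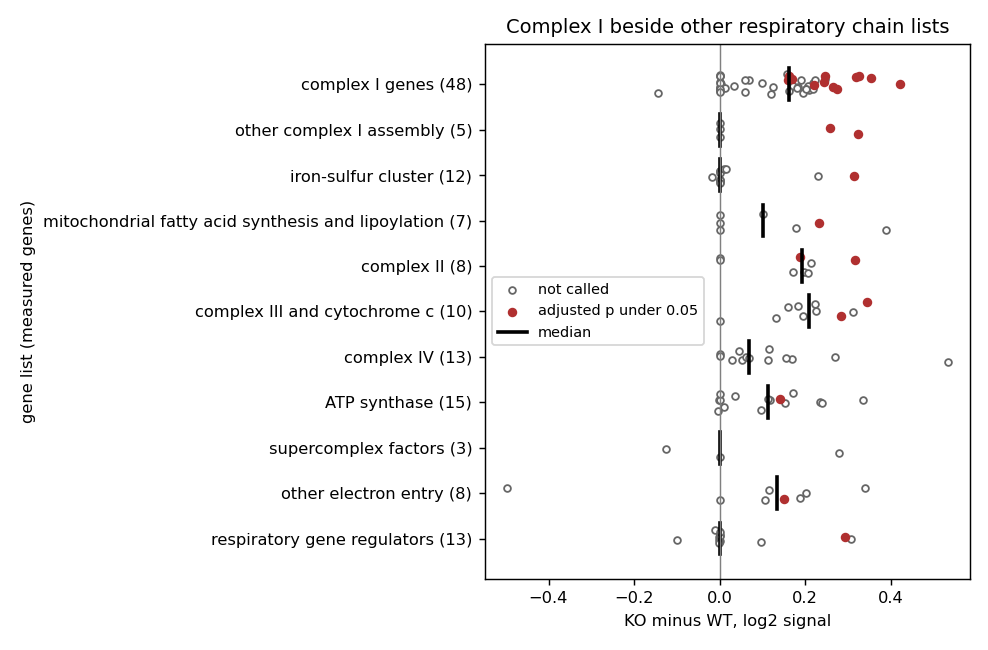
Difference in log2 signal, KO minus WT, of every measured gene of complex I and of 10 related lists, with filled symbols at adjusted p under 0.05 without the block and a bar at each median. The medians of complex I, complex II and complex III lie between 0.16 and 0.21, while those of the further assembly, iron-sulfur, supercomplex and regulator lists lie close to 0. All medians shown include near-constant genes. Over varying genes alone these 4 lists had medians of 0.29, 0.015, 0.08 and 0.10.

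In the tissue as a whole, adipocyte markers were among the brightest genes (Adipoq at percentile 99.98). Their list mean was 12.59 to 12.65 in KO and 12.56 to 12.62 in WT. Over all genes 2 of 7 were called higher without the block, Adipoq and Retn, and 0 with it. With the block among varying genes 1 was higher and 1 lower. The markers did not share a direction. Adipoq differed by 0.25, Retn by 0.26, Cidec by 0.15 and Pnpla2 by 0.004. Lep differed by -0.38 and Lipe by -0.05, and Fabp4 was near constant. The targeted gene Lpar4 had 3 probe sets: one of them read 5.74, 5.91, 5.81 and 5.78 in KO and 6.80, 6.98, 6.89 and 7.04 in WT, while the other 2 were higher in KO, by 0.71 and 0.53, and where each lies relative to the deletion is not known here. The 3 probe sets that detect 18S ribosomal RNA, array controls, had no overlap between genotypes and were above WT in KO by 0.44, 0.22 and 0.28, which is more than the 0.14 of the complex I mean. The 3′ to 5′ differences of the Actb and Gapdh controls, a sign of RNA integrity, overlapped between genotypes (1.11 to 1.33 in KO and 1.08 to 1.25 in WT for Actb, 0.63 to 0.87 and 0.66 to 0.77 for Gapdh). The 2 measured Schwann cell markers of 5, Mbp and Pmp22, were lower in KO (means of 9.35 to 10.3 in KO and 10.4 to 11.3 in WT, 0 called over all genes and 2 with the block among varying genes). The 7 blood endothelial markers, 1 of them called lower over all genes (Esam) and 3 with the block among varying genes, had means from 8.85 to 9.07 in KO and 9.07 to 9.31 in WT, with a slight overlap. The part of these in the complex I result was not tested.

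The list means of markers of brown adipocytes and skeletal muscle, both rich in mitochondria, overlapped between the genotypes. The mean of 8 brown adipocyte markers, 4 of them varying, was 7.03 to 7.20 in KO and 6.95 to 7.11 in WT. Over all genes 0 were called in limma. With the block among varying genes 1 was higher, Cox8b at 0.54 (limma adjusted p = 0.0301), and 1 lower, Kcnk3 at -0.25. Every KO array of Cox8b lay above every WT array. Ucp1 was near constant at percentile 12.2. The mean of 16 skeletal muscle markers was 8.62, 9.24, 6.42 and 7.09 in KO mice 1 to 4 and 8.90, 8.68, 6.49 and 6.94 in WT mice 1 to 4, so that numbers 1 and 2 stood above 3 and 4 in both genotypes. Of the 35 varying complex I genes, 33 were higher in KO both within numbers 1 and 2 and within numbers 3 and 4. Macrophage markers ranged from 9.87 to 10.1 in KO and 8.97 to 10.2 in WT, lymph node markers from 6.54 to 6.76 and 6.30 to 6.70, the 2 of 5 erythrocyte markers measured from 6.98 to 7.11 and 6.73 to 7.09, and the 5 epithelial markers were near constant.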

How the data were processed

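Inguinal fat of 8 male mice was measured on 1 array each. Per the labels' protocols, 100 ng of total RNA was amplified and labelled with biotin in a 3′ IVT kit. The authors deposited log2 values for 45101 probe sets, from 4.93 to 14.3, with array medians of 6.73 to 6.74; the log2 scale was read from the values. The submitters' processing notes name R 2.14.0, and for normalization and summarization no method is given in the sources used here. The number of arrays limits the precision.

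Probe sets naming a single gene (34945) were kept, leaving out control probe sets and the 932 that name several genes. Each gene was represented by its probe set with the highest mean over the 8 arrays. The genotypes were compared in R 4.3.3 by limma 3.58.1, two-sided, using lmFit and eBayes; p-values were adjusted over 18193 genes by Benjamini-Hochberg, at a threshold of 0.05. The SD was under 0.01 for 78.7% of probe sets, for a reason not known here. Whether the near-constant genes were measured is therefore not known either. The prior degrees of freedom were 0.332 over all genes and 2.00 over varying genes. The code was tested on simulated data.

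Deviations of same-numbered KO and WT arrays from their group means correlated over genes at 0.315, 0.486, 0.189 and 0.244, all over 0.1. From the data alone, the numbers were therefore taken as a possible pairing. The main fit, with its SEs and the calls marked in the figures, did not use this pairing. With the number as a block, 0 members passed over all genes. Some unlike numbers correlated as well or better (0.364 for KO 3 and WT 4, 0.266 for KO 4 and WT 3, 0.221 for KO 2 and WT 1), and the table separates numbers 1 and 2 from 3 and 4. Alternatives covered the block, varying genes, dim genes (lowest 40 percent), the probe set per gene, normalization, the variance model, numbers 1 and 2 against 3 and 4, and each array left out.

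The members, classes, lists and motifs were chosen with earlier results of these data known. Array values are given for every member that passed over all genes or with the block among varying genes, and for the largest difference in either direction in each class. From other lists at most 2 passing genes are named, by smallest p. Mecr, Aifm2, Higd1a, Cox7a2l, Cox8b, Kcnk3, Ppargc1a, Yy1, Nrf1, Gabpa and Esrra were named after their values were seen. Promoter sequences come from a RefSeq table of GRCm38.p6.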

Additional observations from a re-analysis of the deposited data

Results flagged for a closer look

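In 3 of 48 gene and genotype groups, each of 4 arrays, a single array lay far from the rest, where chance gives about 1 in 20. Ndufa10 was low in WT 2 (10.5) and Ndufv1 was low in WT 2 (10.6). Ndufb3 was high in KO 1 (10.9).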

How the results depend on the processing

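The count of 12 complex I genes higher in KO was 21 among varying genes only, 15 with the replicate block among varying genes, 0 with the replicate block over all genes and 5 with a block of numbers 1 and 2 against 3 and 4. It was 0 within numbers 1 and 2 and 0 within numbers 3 and 4, both chosen after seeing the data, and 0 to 5 when 1 array was left out. It was 13 with array medians set equal, 13 with the mean of probe sets, 9 with the most variable probe set, 12 after quantile normalization, 11 with a variance trend and 17 without dim genes. The count of lower genes was 0 throughout. The accessory median of 0.159 was 0.117 with the mean of probe sets, 0.119 within numbers 3 and 4 and 0.191 among varying genes with or without the replicate block. The assembly median of 0.143 was 0.211 among varying genes with or without the replicate block and 0.0816 (without WT array 4) to 0.169 when 1 array was left out. The core median of 0.191 ranged from 0.176 without KO array 1 to 0.239 with the most variable probe set. The 11 called genes of the other lists became 30 among varying genes, 18 with the replicate block among them, 0 with the replicate block over all genes, 21 without dim genes, 7 with the same block of number pairs, 0 within numbers 1 and 2, 0 within numbers 3 and 4, and 0 to 7 when 1 array was left out. In every setting 34 of the 35 varying members were higher and Ndufa6 lower, except within numbers 3 and 4, where Ndufa7 was lower too. The blocks, the variance trend and the limits to varying or brighter genes leave each difference as in the main fit. The signs could therefore not change in those settings, where the median of the varying members stayed at 0.195. Only the settings that change the probe set, the scaling or the arrays could move a sign. No scaling moved the median of all genes by more than 0.1. The cause of these changes was not tested beyond the fewer genes or arrays each setting holds. Signal over background was not analysed, which limits dim members such as Ndufb4.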
